A study of Mus musculus with 4 samples.

Results

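Natural killer (NK) cells made up 821 of the 29752 spleen cells that passed the cell filter, 332 of 12712 in library 1 (2.61%, exact binomial 95% interval 2.34 to 2.90) and 489 of 17040 in library 2 (2.87%, 2.62 to 3.13). They were chosen by a rule on measured values. The filter asked for 500 or more genes, 1000 or more RNA unique molecular identifiers (UMIs, each standing for 1 captured RNA molecule) and under 10% mitochondrial UMIs. A cell was called an NK cell when Ncr1, Klrb1c and Klre1 together had at least 2 UMIs, Cd3d, Cd3e and Cd3g had none, and the antibodies to XCR1 and CD172a had at most 2 UMIs each. These 6 genes and 2 antibodies are therefore description only and were left out of every test. CD3-positive cells of the same antibody gate (at least 2 UMIs of the Cd3 genes, 863 and 754 cells) are the comparison, and NK cells were also compared among themselves by surface CD11b and by surface Ly49D.

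The data are CITE-seq, which reads messenger RNA and barcoded antibodies bound to the same single cell. All cells were splenocytes of wild-type (WT) C57BL6 mice in steady state, so no comparison is between treatments or genotypes. Per the labels, cells from 2 mice were enriched for dendritic cells (DCs) by magnetic negative selection and stained with 160 antibodies and 9 isotype controls. The sort then took 50000 to 60000 type 1 conventional DCs (cDC1), 10000 of type 2 (cDC2) and 10000 live cells at random. The NK share above is set by that enrichment and sort and is not the share of NK cells in a spleen. Whether the 2 libraries stand for separate mice is not said in the labels. The library was a block in each fit, so the p-values rest on how far differences between classes varied from library to library. That variation may be technical.

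NK cells are innate lymphocytes that kill infected or transformed cells by releasing perforin and granzymes, and that secrete interferon gamma and chemokines. Activating receptors and inhibitory receptors for MHC class I, among them the Ly49 and CD94/NKG2 lectin-like receptors, set their response, and each cell carries only some of the Ly49 receptors. In the mouse spleen they mature from cells high in CD27 to cells high in CD11b and KLRG1. NK cells also make XCL1, the ligand of the receptor XCR1 on cDC1.

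The genes given as markers of these cells were found at high levels. Ncr1, which encodes the activating receptor NKp46, had 669 and 608 counts per 1000000 UMIs (CPM) in libraries 1 and 2, and Klrb1c, which encodes NK1.1, had 596 and 468 CPM, both required by the rule. Gzma (granzyme A, a granule protease) was at 9490.2 and 10814 CPM against 333 and 523 in CD3-positive cells. Prf1 (perforin, the pore-forming protein of cytotoxic granules) was at 1020.4 and 922 CPM against 86.9 and 77.9, and Xcl1 at 1517 and 1027 against 196 and 267. For these 3 genes, which the rule did not use, both NK libraries lay above both CD3-positive ones.

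The promoters of these 5 markers are shown because a short string, the RUNX core motif TGTGGT on either strand (ACCACA on the other), is found in all of them. Each stretch is RefSeq sequence on GRCm38.p6, read 5′ to 3′ on the gene's strand, with at most 30 bases on either side of the motif, which is in capitals.
Ncr1, chr7:4337644-4337709, plus strand: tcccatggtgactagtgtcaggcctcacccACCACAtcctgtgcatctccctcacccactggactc
Klrb1c, chr6:128788695-128788760, minus strand: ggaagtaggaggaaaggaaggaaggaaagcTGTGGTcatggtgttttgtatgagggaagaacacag
Gzma, chr13:113100996-113101061, minus strand: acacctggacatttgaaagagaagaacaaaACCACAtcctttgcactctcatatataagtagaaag
Prf1, chr10:61297676-61297741, plus strand: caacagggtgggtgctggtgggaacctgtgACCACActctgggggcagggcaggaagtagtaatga
Xcl1, chr1:164935714-164935772, minus strand: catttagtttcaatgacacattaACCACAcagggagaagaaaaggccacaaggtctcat
The string was found in 5 of 5 marker promoters (250 bases before to 50 after the start) and in 16.9% of all 27025 promoters of the same length. It was chosen after the matches of several RUNX and T-box strings had been seen, so it is a description. The T-box core string GGTGTGA was found in 1 of 5 marker promoters, that of Xcl1, and in 3.96% of all promoters. Among the 12 genes with the largest increase in NK cells, 4 of the 11 with a promoter in the table held the RUNX core, as did 3 of 10 among the 12 with the largest decrease.

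The classes differed in depth. The median NK cell had 2202 and 2288 RNA UMIs, 1095.5 and 1108 genes and 491 and 453 antibody UMIs in libraries 1 and 2, against 3042 and 2893 RNA UMIs in CD3-positive cells and 3223 and 2732 in B cells. The NK class summed to 961417 and 1541736 RNA UMIs. No NK barcode sequence occurred in both libraries, although 61 barcodes of all cells did. Of the marker lists, 11 NK genes summed to 20688 and 20872 CPM in NK cells, 2185 and 2633 in CD3-positive cells and 90.3 and 98.9 in B cells. This list holds Ncr1, Klrb1c and Klre1, which the rule asked for in NK cells and which B cells lacked by definition, so part of this difference was set by the classing. The 13 T cell markers summed to 734 and 835 CPM in NK cells (Cd3d, Cd3e and Cd3g at 0 by the rule) and to 6772 and 6452 in CD3-positive cells.

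Cells just outside the rule differed from those just inside it. The 80 NK cells with exactly 2 UMIs of the 3 receptor genes had Gzma at 6555 CPM and a median of 1925 RNA UMIs. The 222 cells of the gate with 1 such UMI had Gzma at 385 CPM, a median of 7221.5 RNA UMIs and a median of 4.76% of their UMIs from MHC class II genes, against 0.328% inside. A further 44 cells that failed the rule for a single Cd3 UMI had Gzma at 7855 CPM and surface CD5 at 15.9 per 10000 antibody UMIs.

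A small set of NK cells carried RNA of DCs. In 67 of the 821 cells (20 and 47) MHC class II genes made up at least 1% of the UMIs, and these cells had a median of 8066 UMIs. Scrublet, a doublet caller, marked 45 of these 67 cells and 2 of the other 754. Il12b was at 227 CPM in them against 4.11 CPM in the others, and surface MHC class II (antibody IA_IE) at 1203 against 208 per 10000. The 14 conventional DC markers summed to 14127 and 19245 CPM in NK cells, to 3897 and 4007 without these cells, and to 9965 and 12782 in CD3-positive cells. The 67 cells were kept, as the rule has it, and results that turn on them are also given without them, a choice made after seeing the data.

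**Figure D1:**
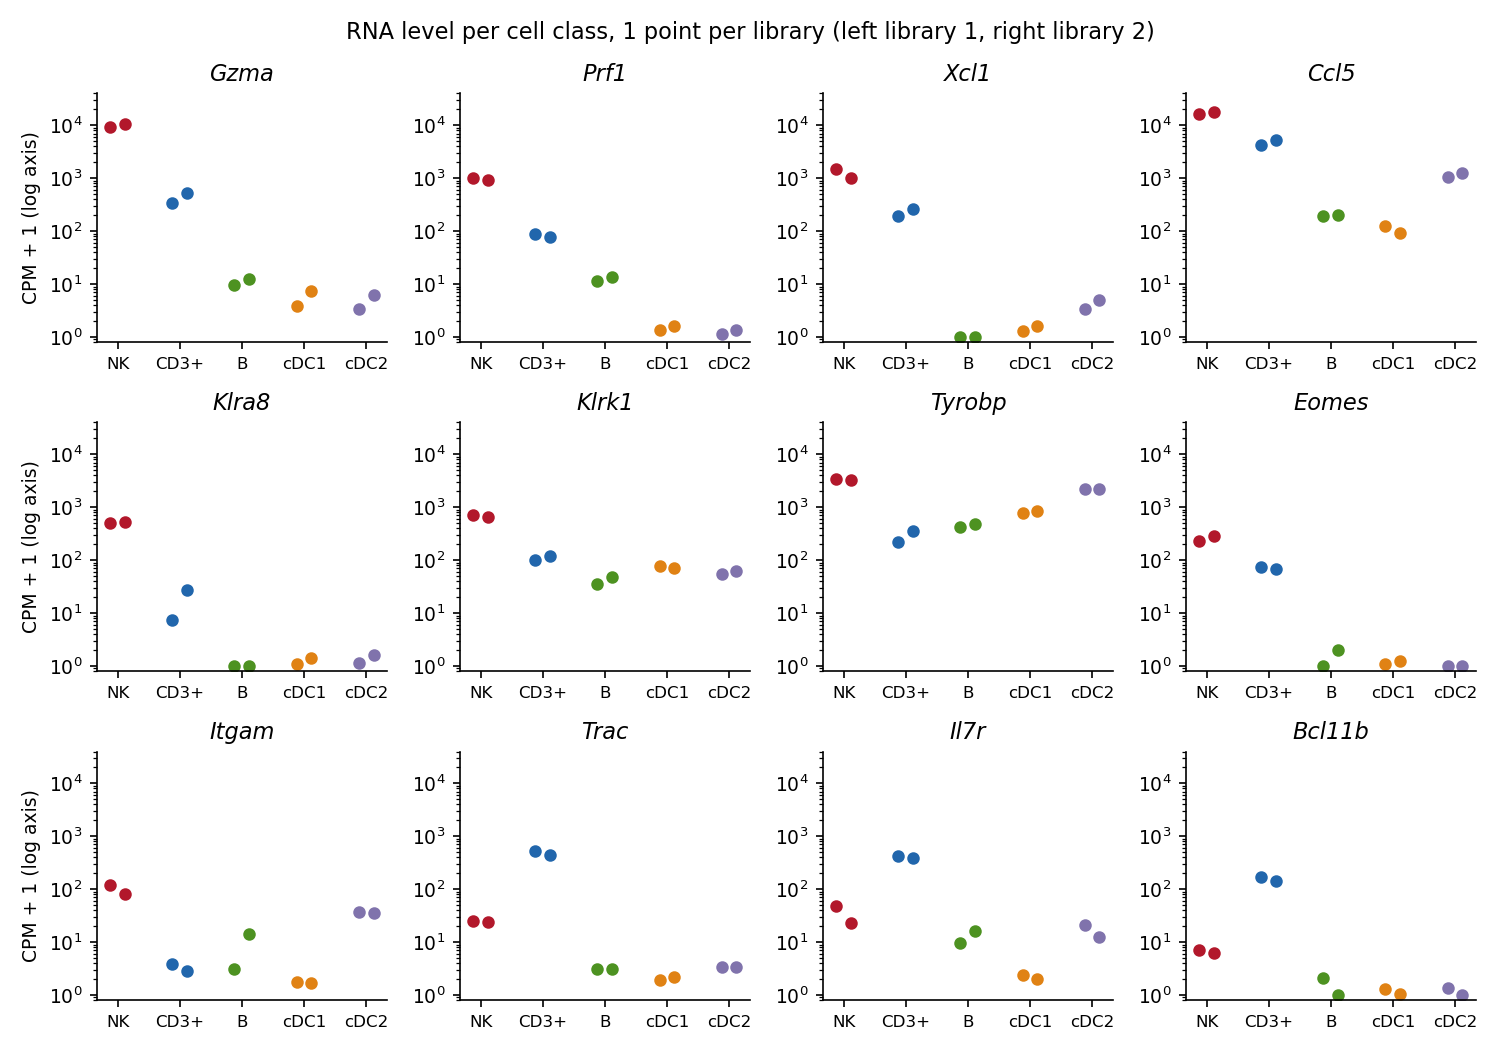
RNA level (CPM plus 1, log axis) of 12 genes in NK, CD3-positive (CD3+), B, cDC1 and cDC2 cells, with 1 point per library. Gzma, at 9490.2 and 10814 CPM, stands highest in NK cells, and Trac, at 523 and 435 CPM, highest in CD3-positive cells.

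Against CD3-positive cells, Gzma, Gzmb, Prf1, Ccl3, Ccl4, Ccl5 and 17 of 22 killer lectin-like receptor genes were higher in NK cells. Lower were 20 of 21 T cell genes, with Ccr7, S1pr1 and Il7r. The test covered 11214 genes and called 1048 higher (9.35%) and 1065 lower (9.5%), 18.8% in all, with a median log2 fold change over all genes of -0.01 (edgeR quasi-likelihood test on UMIs summed per class and library, Benjamini-Hochberg adjusted p under 0.05). Without the cells high in MHC class II, 1083 of 11057 were higher (9.79%) and 1120 lower (10.1%), 19.9% in all.

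The killing machinery was led by Gzma, which was 4.50 higher on the log2 scale (SE 0.15, adjusted p = 5.99e-12). A Gzma UMI was found in 88.6% and 93.9% of NK cells and in 8.0% and 11.7% of CD3-positive cells, with 2.81% and 3.38% of B cells as a guide to free RNA. The B class was limited to cells with no UMI of the 6 rule genes, so its shares could understate free NK cell RNA. With each cell thinned to 1000 UMIs the shares were 86.7% and 92.8% of NK cells and 5.45% and 8.49% of CD3-positive cells. Prf1 was 3.44 higher on the log2 scale (SE 0.12, adjusted p = 5.99e-12). Gzmb (granzyme B) was at 577 and 513 CPM against 40.2 and 86.5, a log2 increase of 3.03. Serpinb9, the granzyme B inhibitor that protects the killer cell, was at 836 and 719 CPM against 75.9 and 100.3. Of 20 cytotoxic genes, 9 were higher and 1 was lower, with a median log2 fold change of 0.46. The lower one was Gzmm (granzyme M), at 19.8 and 20.1 CPM against 67.6 and 55.9.

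Cma1, a chymase best known from mast cells, had the largest increase among genes with at least 50 CPM. It was at 163 and 178 CPM in NK cells and at 0.644 and 1.86 in CD3-positive cells, 7.0 higher on the log2 scale (SE 0.32, adjusted p = 3.69e-10). Of 6 basophil and mast cell markers, 5 were at 0 in NK cells. Vegfa, a growth factor of blood vessels, was at 159 and 110.3 CPM against 3.86 and 5.59. Tnfsf12 (TWEAK, a cytokine of the TNF family) was at 73.8 and 62.3 CPM against 0.322 and 4.47, and Serpinb9b, a relative of Serpinb9, at 86.3 and 57.1 against 0.644 and 2.24.

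Killer lectin-like receptors of the Ly49, NKR-P1 and NKG2 families bind MHC class I, MHC-like or C-type lectin ligands. Of 22 tested among 23 listed, 17 were higher, 0 were lower, and the median log2 fold change was 2.40. Klra8 (Ly49H, which binds a protein of mouse cytomegalovirus) was at 509.7 and 521 CPM against 6.44 and 26.5, a log2 increase of 4.92 (SE 0.26, adjusted p = 1.65e-09). Klra4 (the activating receptor Ly49D) was at 657 and 712 CPM against 9.65 and 47.7, and Klra9 (Ly49I) at 322 and 309 against 7.72 and 23.5. Klrb1a and Klrb1b, of the NKR-P1 family, were at 159 and 112 against 3.54 and 7.45 and at 136 and 114 against 7.4 and 5.96 CPM. Klrk1 (the activating receptor NKG2D) was at 718 and 658 CPM against 99.1 and 120.4, and Klrd1 (CD94) at 949.6 and 863 against 241 and 266. Receptors of the Ly49 and NKR-P1 families resemble each other in sequence, and reads at the 3′ end could be split between them or lost.

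The receptors differed in how many NK cells carried them. Klrd1 had a UMI in 87.3% and 85.9% of NK cells and Klrk1 in 79.5% and 81.2%. The Ly49 genes were each found in fewer cells. Klra8 was found in 43.4% and 48.5%, Klra7 (Ly49G) in 39.8% and 44.8%, Klra4 in 38.3% and 40.7%, Klra9 in 36.7% and 35.6%, Klra3 (Ly49C) in 36.1% and 30.9% and Klra1 (Ly49A) in 11.7% and 13.3%. Klrc1 (the inhibitory receptor NKG2A) was found in 33.7% and 34.8% and Klrc2 (NKG2C) in 35.2% and 36%. In B cells these shares lay between 0 and 1.93% for the Ly49 genes, Klrc1 and Klrc2, and were 3.93% and 4.83% for Klrd1 and 12.9% and 13% for Klrk1. Thinned to 1000 UMIs, Klra4 was found in 33.4% and 34.4% of NK cells and Klra8 in 29.8% and 35.4%, so a share depends on depth as well as on the cells.

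Several adaptors that carry signals of activating receptors were higher too. Tyrobp (DAP12) was at 3466 and 3304 CPM against 219 and 360.4, and Fcer1g (the Fc receptor gamma chain) at 2366 and 2062 against 116 and 188. Syk, the kinase that binds both, was at 57.2 and 66.2 CPM against 7.4 and 9.32, while the related kinase Zap70, at 89.5 and 92.1 against 93 and 102, did not pass the test (adjusted p = 0.263). Lat, the scaffold of T cell receptor signalling, was lower at 58.2 and 49.3 CPM against 352 and 300.0, and its relative Lat2 was higher at 149 and 143 against 13.5 and 22. Hcst (DAP10, the adaptor of NKG2D) was at 528 and 455 CPM against 456 and 438 and did not pass (adjusted p = 0.94). Of 22 other receptors and adaptors tested among 24, 9 were higher and 2 lower, and of 24 signalling genes 7 were higher and 8 lower.

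Several chemokines were higher in NK cells. Ccl5 was at 16294 and 18131 CPM against 4198 and 5355, a log2 increase of 1.74 (SE 0.13, adjusted p = 3.21e-08), with a UMI in 98.8% and 98.8% of NK cells and 16.9% and 16.9% of B cells. Ccl3 and Ccl4, inflammatory chemokines, were at 660.5 and 843 CPM against 38.6 and 43.6 and at 2971 and 2953 CPM against 187 and 248. Xcl1 was 2.35 higher on the log2 scale (SE 0.18, adjusted p = 1.17e-07), with a UMI in 65.4% and 62.4% of NK cells, 18.2% and 20.2% of CD3-positive cells and none of 178 and 207 B cells, which allows shares of up to 2.05% and 1.77% (exact binomial). Ifng (interferon gamma) was at 370.3 and 407 CPM against 80.1 and 57. Ltb (lymphotoxin beta) was lower, at 222 and 139 CPM against 614 and 549. In all, 6 of 17 chemokines and cytokines tested among 20 were higher and 3 were lower.

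Cytokine receptors were split, with 8 of 23 tested among 24 higher and 7 lower. Il2rb, the chain shared by the receptors of IL-2 and IL-15, was at 981 and 751 CPM against 346 and 296, and Il12rb2, of the IL-12 receptor, at 51 and 55.1 against 4.18 and 7.83. Il18rap, of the IL-18 receptor, was at 214 and 196 CPM against 29 and 46.2. Il7r (the IL-7 receptor) was at 47.8 and 22.1 CPM against 431 and 389, a log2 decrease of 3.76 (SE 0.19, adjusted p = 4.62e-10).

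Homing genes were also split, with 12 of 26 higher and 9 lower. Itgam (the alpha chain of CD11b) was at 119 and 81.7 CPM against 2.9 and 1.86, and Itga2 (CD49b) at 108 and 102 against 6.11 and 8.2. S1pr5, a receptor used to leave tissues, was at 34.3 and 46.1 against 3.22 and 4.47 CPM. S1pr1 and Ccr7, which guide T cells out of and into lymphoid tissue, were at 19.8 and 16.2 CPM against 222 and 202 and at 95.7 and 68.1 against 505 and 548.

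Of 31 lymphocyte transcription factors tested among 35, 11 were higher and 16 lower. Eomes and Tbx21 (T-bet), the T-box factors of NK cells, were at 232 and 287 CPM against 73.4 and 66.3 and at 129 and 143 against 28.6 and 22.4. Irf8 was at 1737 and 1691 CPM against 255 and 374, and Zeb2 at 156 and 162 against 20.9 and 23.5. Bcl11b, which maintains T cell identity, was at 6.24 and 5.19 CPM against 172 and 144. Tcf7 and Lef1, of the TCF family, were lower, at 98.8 and 83 against 291 and 279.9 and at 49.9 and 60.3 against 291 and 270.2 CPM.

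T cell genes were lower, 20 of the 21 tested among 23, with a median log2 fold change of -3.07. Trac, the constant region of the T cell receptor alpha chain, was at 23.9 and 22.7 CPM against 523 and 435 (log2 decrease of 4.46, SE 0.15, adjusted p = 5.99e-12). Trbc1, a constant region of the beta chain, was still at 303 and 359 CPM against 704 and 785, a log2 decrease of 1.28. Cd8b1, the CD8 beta chain, had 3 UMIs in NK cells and 2571 in CD3-positive cells, a ratio of 370.5 per total RNA (counting interval 127 to 1798). Igfbp4 (an IGF-binding protein) and Izumo1r (folate receptor 4) had no UMI in NK cells, at least 57.2-fold and 55.8-fold lower by a floor of 3 counts over both libraries. Cd5 and Cd6, surface proteins of T cells, were at 3.12 and 1.3 CPM against 181 and 156 and at 1.04 and 0.649 against 129 and 102. The rest of the 12 largest decreases had 1 or 2 UMIs in NK cells (Dapl1, Nsg2, BE692007, Slfn1, Fam169b and Themis, a regulator of T cell receptor signals, with 328 to 841 UMIs in CD3-positive cells) or, for Gm8369, 1.04 and 2.59 CPM against 169 and 178.

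Other gene lists gave the following counts. Of 24 cell cycle genes, 10 were higher and 0 were lower, with a median of 0.59, and Top2a (topoisomerase of dividing cells) was at 141 and 235 CPM against 81.1 and 95. Of 22 genes of the early stress response, immediate early and heat shock, 13 were higher and 1 lower, among them Nr4a1 at 966 and 840.0 CPM against 282 and 261. Of 24 interferon-stimulated genes, 2 were higher and 8 lower, with Ifi27l2a at 46.8 and 46.1 CPM against 642 and 505. Ribosomal protein genes were lower in 77 of 84 and higher in 1, with a median of -0.72. Of the 14 conventional DC markers, 9 were higher and 1 lower in NK cells, and 1 higher and 1 lower without the cells high in MHC class II.

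**Figure D2:**
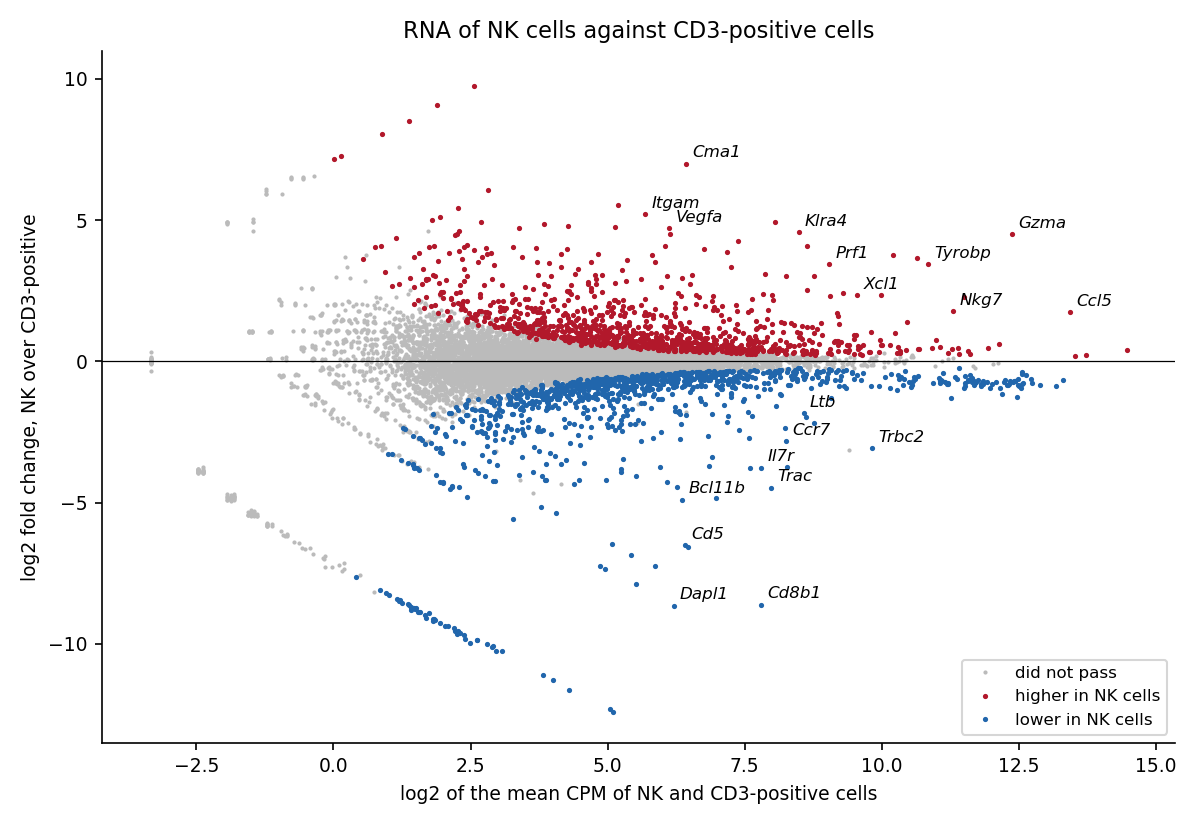
Log2 fold change of NK over CD3-positive cells against the log2 of the mean CPM of both classes, with 1 point per gene tested and colour for genes past an adjusted p of 0.05. Gzma and Ccl5 lie at high level and above 0, and the diagonal at lower left holds genes with no UMI in NK cells and that at upper left genes with none in CD3-positive cells, whose fitted change is no measure of size.

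The antibodies gave a second readout of the same cells, as UMIs per 10000 antibody UMIs. Of 170 tested, 32 were higher in NK cells (18.8%) and 36 lower (21.2%), 40.0% in all, with a median log2 fold change of 0.24. Without the cells high in MHC class II, 37 were higher (21.8%) and 36 lower (21.2%), 42.9% in all. The split depended on the scaling, with 12 higher and 32 lower when isotype UMIs set the library size (median 0.09) and 54 higher and 35 lower with antibody totals alone (median 0.36). The highest isotype control was at 2.94 in NK cells. The 10 antibodies named in each direction kept their direction under both scalings.

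Ly49D was the antibody with the largest increase, at 584 and 545 per 10000 against 11.4 and 31.9, a log2 increase of 4.81 (SE 0.38, adjusted p = 1.89e-06). CD49b (an integrin chain) was at 1541 and 1369 against 89.9 and 104, and CD11b at 366 and 354 against 26 and 32. CD29, the beta chain that pairs with CD49b, was at 521 and 516 against 109 and 131. NK1.1 (27.5 and 22.5 against 1.15 and 1.77) and CD335, the NKp46 protein (32.3 and 24.2 against 1.73 and 2.38), are the products of genes that the rule used. Both are therefore description, although they are among the antibodies counted as higher. CD45R_B220, an isoform of CD45 found on B cells and mouse NK cells, was at 11.6 and 12.7 against 1.26 and 1.84. CD314 (NKG2D), at 60.9 and 53.2 against 11.3 and 13.5, and CD122 (the Il2rb protein), at 82.1 and 64.6 against 16.7 and 15.5, were higher, as were their RNAs. Ly49H was at 17 and 18.8 against 2.48 and 3.42, and levels of different antibodies cannot be compared in amount.

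Among T cell proteins, CD8b was at 8.5 and 11.5 per 10000 in NK cells against 786 and 887, a log2 decrease of 6.52 (SE 0.25, adjusted p = 6.49e-09). CD5 was at 27.2 and 29.4 against 1984 and 1718, and the T cell receptor beta chain (TCRb) at 0.552 and 0.894, below the highest isotype control, against 20.5 and 22. CD127, the Il7r protein, was at 3.48 and 1.63 against 20.1 and 15.3, and CD73 (an enzyme that makes adenosine) at 20.4 and 15.9 against 218 and 147. CD4, at 45 and 13 against 414 and 314, differed more between the NK libraries, and a single NK cell of library 1 held 576 of its CD4 UMIs. CD3, at 1.71 and 1.36 against 18 and 15.4, is the product of genes that the rule used and is description, although it is among the antibodies counted as lower. The remaining named antibodies, CD150, TCRb5 and CD103, were at 4.91 and 4.9 against 78.4 and 55.3, at 0.276 and 0.505 against 3.6 and 4.22 and at 2.48 and 3.38 against 19.3 and 18.4.

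**Figure D3:**
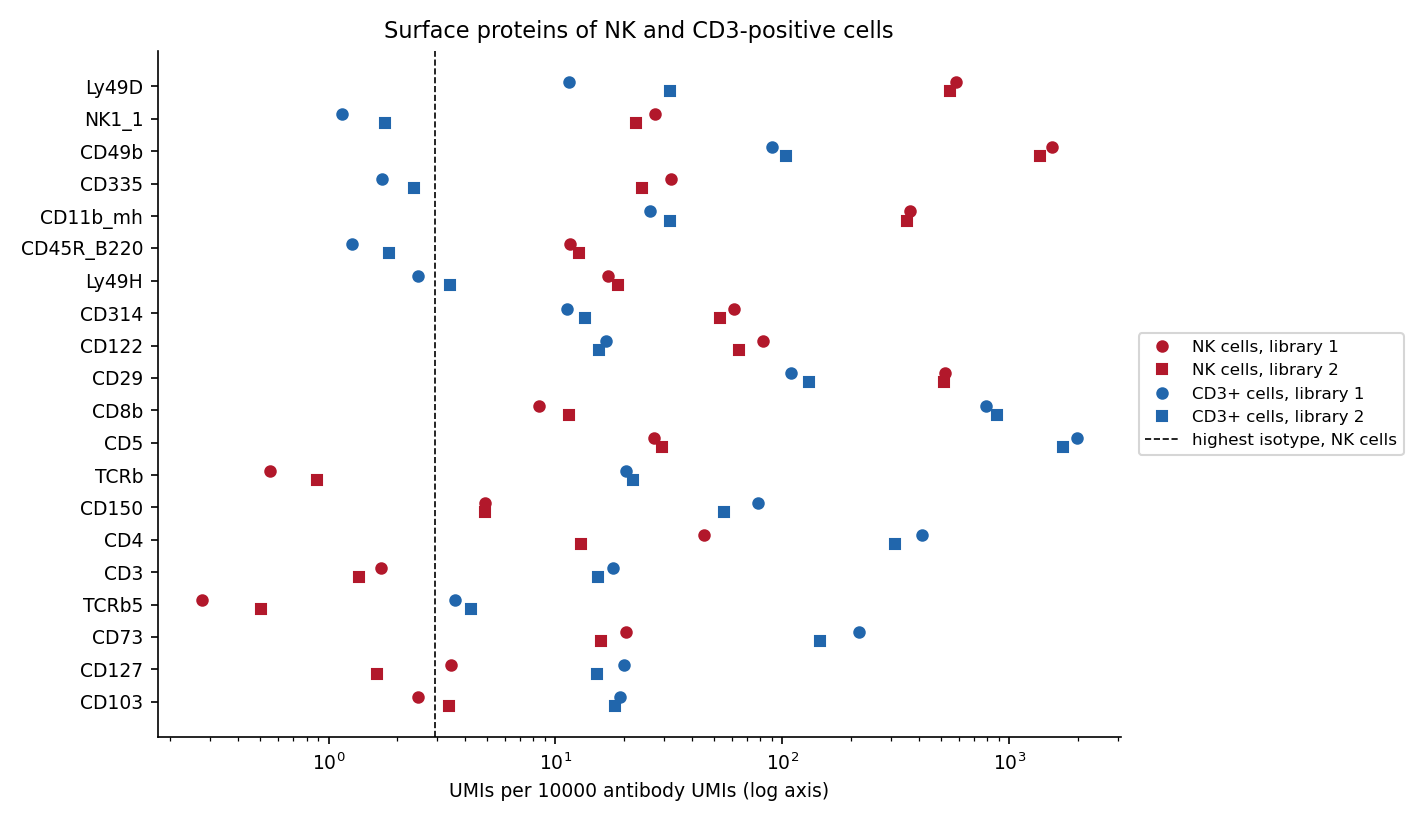
Antibody UMIs per 10000 (log axis) of the 20 named antibodies in NK and CD3-positive (CD3+) cells of both libraries, with the highest isotype control of NK cells as a dashed line at 2.94. Ly49D stands at 584 and 545 in NK cells and CD5 at 1984 and 1718 in CD3-positive cells.

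NK cells were then divided by surface CD11b into 3 groups of equal size within each library, called CD11b-high (111 and 163 cells), CD11b-mid (110 and 163) and CD11b-low (111 and 163). The antibody made this division and is description. Cells were CD11b-low up to 162 and 202 per 10000 other antibody UMIs in libraries 1 and 2, and CD11b-high from 531 and 489. The barcodes of the antibodies used to divide NK cells, by CD11b here and by Ly49D further on, are given whole, since the counts are reads of these 15 bases.
CD11b_mh: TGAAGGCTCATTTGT
Ly49D: TATATCCCTCAACGC
CD11b-low cells had more RNA, with a median of 2690 and 2760 UMIs against 1898 and 1929 in CD11b-high cells. They also held more of the cells high in MHC class II, 10 and 21 against 1 and 3, and 9 and 23 were CD11b-mid.

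CD11b-high cells had more RNA of Gzma, Gzmb, Prf1, Ccl3, Ccl4, Ccl5, Klra9 and Ly6c2, and CD11b-low cells more of Il7r, Cxcr6, Ltb, Cd7 and Cd160. Of 5250 genes tested, 140 were higher in CD11b-high than in CD11b-low cells (2.67%) and 192 were lower (3.66%), 6.32% in all, with a median of 0.00. Without the cells high in MHC class II, 54 of 4826 were higher (1.12%) and 62 lower (1.28%), 2.4% in all, and 113 of these genes were shared with the first count. DESeq2 called 41 higher and 47 lower. When cells were divided by raw CD11b UMIs, 59 genes were called, and of the genes named below Klra8, Tbx21, Eomes, Ifng, Sytl2, Phactr3, Top2a, Cdk1 and Tmem176a no longer passed. With a stricter cell filter 47 were called, and Klra8, Klrg1, Ly6a2, Tbx21, Eomes, Ifng, Gadd45g, Phactr3, Tcf7, Emb, Top2a and Cdk1 no longer passed.

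Itgam itself followed its protein, with 248 and 155 CPM in CD11b-high, 122 and 85.5 in CD11b-mid and 36.7 and 37 in CD11b-low cells. As the division was made on the product of Itgam, this checks the antibody and is not a finding, although Itgam is among the genes counted as higher. Gzmb was at 1166 and 988, 602 and 483, and 194 and 269 CPM in the same order, a log2 increase of 2.18 from low to high (SE 0.16, adjusted p = 2.37e-09). Cma1 was at 367 and 359, 168 and 203, and 34.1 and 54 CPM (log2 increase of 3.00). In Gzmb and Cma1 the groups stood in the same order in each library, and high and low groups did not overlap.

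Prf1 was at 1739 and 1589.5 CPM in CD11b-high against 500.4 and 557 in CD11b-low cells, and Gzma at 15599.6 and 16047 against 5952 and 7676. Of 16 cytotoxic genes tested among 20, 9 were higher and 0 were lower (median 0.61), and 6 and 0 without the cells high in MHC class II. Ccl4 was at 6413 and 4864 against 1224 and 1898, Ccl3 at 1231 and 1456 against 343 and 481, and Ccl5 at 26867 and 28415 against 10742 and 11634 CPM. Xcl1 did not follow these chemokines, at 1965 and 1236 CPM in CD11b-high, 897 and 751 in CD11b-mid and 1802 and 1133 in CD11b-low cells, and did not pass the test of high against low (adjusted p = 0.576). Ifng, at 534 and 498 against 338 and 355, passed (adjusted p = 0.035) but not without the cells high in MHC class II (0.473).

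Among receptors, Klrg1 was at 124 and 207 CPM in CD11b-high against 39.3 and 47.8 in CD11b-low cells, and Klra9 at 679 and 577 against 162 and 218. Of 18 killer lectin-like genes tested among 23, 9 were higher and 0 were lower, and 3 and 0 without the cells high in MHC class II. Klra8 was at 756 and 648 against 401 and 424 CPM (adjusted p = 0.00148, and 0.0608 without those cells). Klra4 was at 714 and 792 against 558 and 711 CPM and did not pass (adjusted p = 0.34), nor did Klrk1, at 820.4 and 819 against 739 and 620.3 (0.197).

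Of 22 mature-stage genes tested among 23, 13 were higher and 1 lower (median 0.95), and 11 and 0 without the cells high in MHC class II. Ly6c2 (a Ly6C surface protein) was at 286 and 493 CPM in CD11b-high against 47.2 and 46.3 in CD11b-low cells, and Ly6a2 at 76.9 and 81.7 against 10.5 and 6.17. Tbx21 was at 192 and 218 against 83.8 and 100.3. Eomes, at 329 and 365 against 139 and 229.9, passed (adjusted p = 0.00459) but not without the cells high in MHC class II (0.143). Cx3cr1, a chemokine receptor of late-stage NK cells, had 27 UMIs in CD11b-high and 2 in CD11b-low cells, a 23.1-fold ratio per total RNA (counting interval 5.81 to 201). Sytl2 (of granule docking) was at 59.8 and 65.3 against 15.7 and 13.9, Gadd45g at 132 and 147 against 26.2 and 47.8, and Phactr3 at 47 and 62.6 against 13.1 and 17 CPM, the last not passing without those cells (adjusted p = 0.109). DESeq2 gave no adjusted p for Ly6a2, Sytl2 and Phactr3 and so called none of them.

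On the other side, 8 of 16 immature-stage genes tested among 19 were lower in CD11b-high cells and 1 was higher, and 7 and 0 without the cells high in MHC class II. Ltb was at 85.5 and 98 CPM in CD11b-high, 122 and 81.7 in CD11b-mid and 396 and 208 in CD11b-low cells (log2 decrease of 1.58, SE 0.25, adjusted p = 0.000276). Tcf7, a factor of early lymphocyte stages, was at 68.4 and 51.7 against 147 and 119, and Cd7 at 350.4 and 403 against 896 and 673. Emb (embigin, a membrane protein) was at 179 and 218 against 576 and 310.2, and Cd160, a receptor of the immunoglobulin family, at 51.3 and 103 against 252 and 205. Cd27, which encodes the marker of the earlier stage, was at 132 and 87.1 against 183 and 159 and did not pass (adjusted p = 0.13). Of 21 cell cycle genes tested, 7 were lower and 0 higher, and 4 and 0 without those cells, with Top2a at 34.2 and 171 against 244 and 282 and Cdk1 at 12.8 and 24.5 against 70.7 and 83.3 CPM.

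Most Il7r and Cxcr6 RNA was in CD11b-low cells. Il7r was at 4.27 and 10.9 CPM in CD11b-high, 11.6 and 9.5 in CD11b-mid and 107 and 38.6 in CD11b-low cells (log2 decrease of 2.89, SE 0.58, adjusted p = 0.00255). Cxcr6, a chemokine receptor of tissue-resident lymphocytes, had no UMI in CD11b-high cells and was at 41.9 and 40.1 CPM in CD11b-low cells, at least 8.18-fold lower by a floor of 3 counts over both libraries. Tmem176a and Tmem176b, which encode related membrane proteins, were at 0 and 19.1 against 118 and 52.5, and at 0 and 10.9 against 134 and 38.6. All 4 genes also passed without the cells high in MHC class II. DESeq2 gave Il7r, Tmem176a and Tmem176b log2 changes of -2.99, -3.29 and -3.69 but no adjusted p, so it called none of them.

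Il7r and Cxcr6 overlapped in a few cells. Among the 754 NK cells with under 1% MHC class II, Il7r had a UMI in 36 cells, 28 of them CD11b-low, and Cxcr6 in 17, of which 16 were CD11b-low. Both were found in 10 cells. The 36 cells had Eomes at 36.6 CPM and Gzma at 1702 CPM, and no Eomes UMI was found in the 10 with both genes. Il17a, Il13 and Il5, cytokine genes of other innate lymphoid cells, had no UMI in NK cells. Of 9 tested genes of a list for type 1 innate lymphoid cells, 4 were lower in CD11b-high cells and 1 higher. The 36 cells were picked by Il7r RNA, so these levels describe them and test nothing.

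Of the 12 largest decreases, 9 lost most of their UMIs without the cells high in MHC class II, and some rested on few cells. Il12b (a chain of IL-12) was at 8.55 and 2.72 CPM in CD11b-high against 86.5 and 106 in CD11b-low cells, but its 102 UMIs in the low group came from 9 cells, and 4 UMIs were left without those cells. For Apol7c, 95 of 154 UMIs were in 1 cell, and 10 were left. Basp1, Il4i1, Ifi205, Jaml, Ckb, Cd24a and Batf3 (a factor of cDC1) had 91, 59, 70, 65, 198, 79 and 93 UMIs in the low group, of which 13, 5, 4, 18, 62, 20 and 29 were left. Ckb was spread over 57 cells of the low group and Batf3 over 46, against 11 for Il4i1. Without the cells high in MHC class II, Ckb still passed in edgeR (log2 decrease of 1.46, SE 0.38, adjusted p = 0.0443). Cd24a did not (adjusted p = 0.618), and the rest were not in that test. These 9 genes had changes of the opposite sign when cells were divided by raw CD11b UMIs, none past the threshold. Of 12 conventional DC markers tested, 9 were lower in CD11b-high cells, and 0 without those cells.

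**Figure D4:**
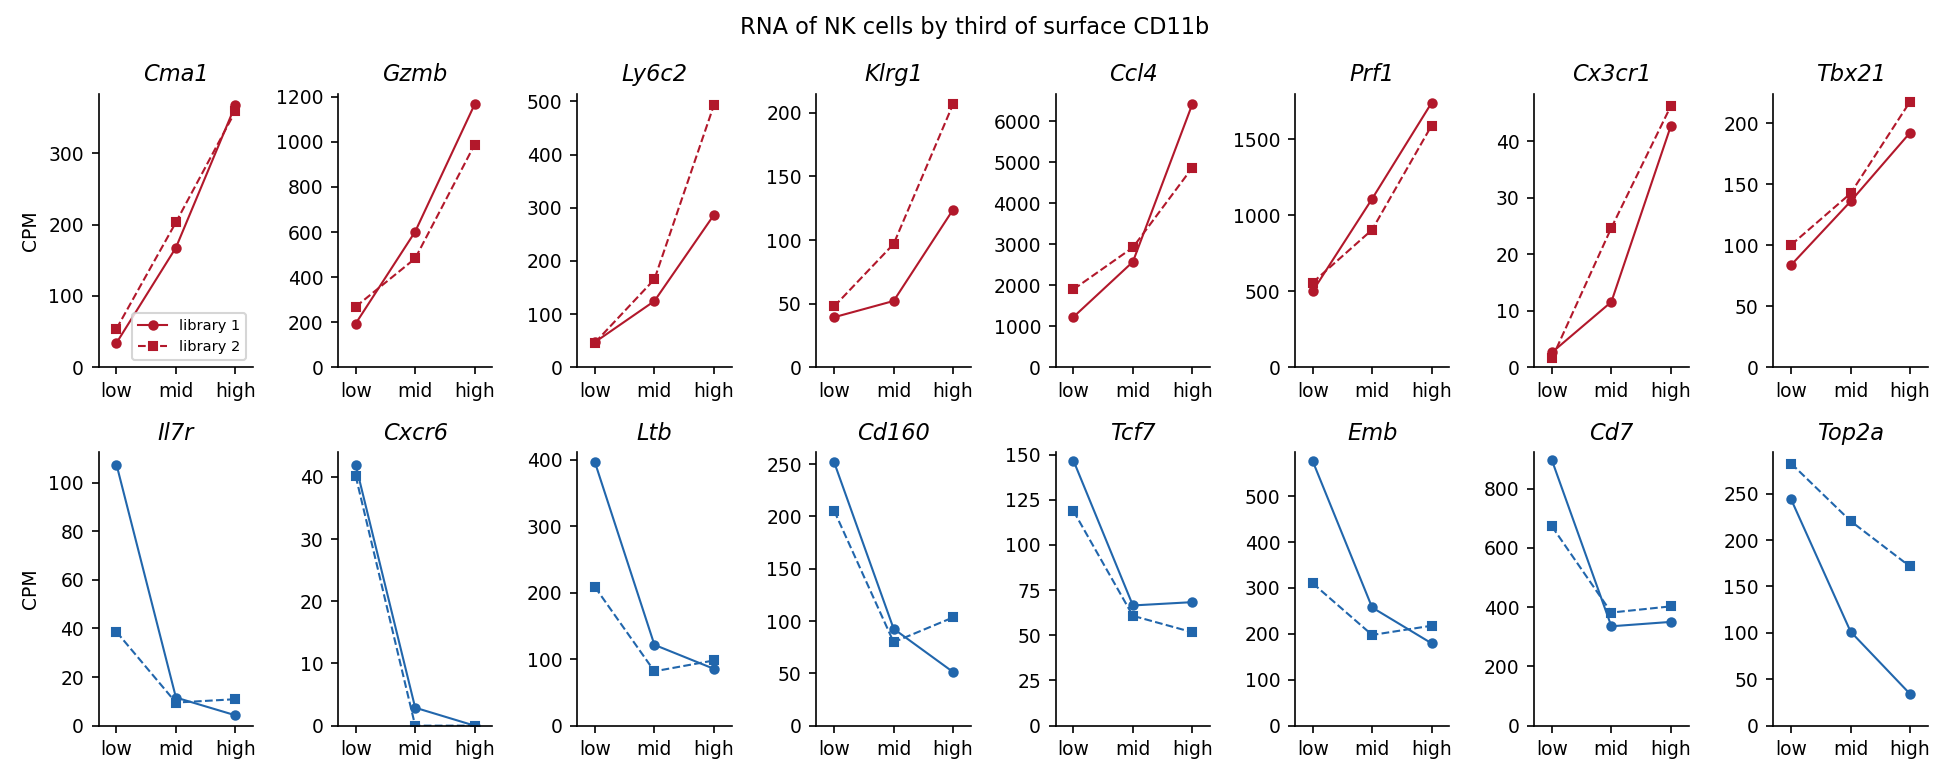
CPM of 16 genes in CD11b-low (low), CD11b-mid (mid) and CD11b-high (high) NK cells, with 1 line per library and axes from 0. Genes drawn in red are higher in CD11b-high cells, as Gzmb from 194 and 269 to 1166 and 988 CPM, and genes drawn in blue are higher in CD11b-low cells.

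Surface proteins also differed between these groups. Of 169 antibodies tested, 7 were higher (4.14%) and 9 lower (5.33%) in CD11b-high cells, 9.47% in all, and 6 (3.55%) and 9 (5.33%), 8.88% in all, without the cells high in MHC class II. With isotype scaling 1 was higher and 7 lower, and with antibody totals alone 6 and 19, which moved the median of the panel from 0.03 to -0.30 and -0.12. With raw CD11b UMIs no antibody passed (edgeR, 22 at an unadjusted p under 0.05), so each call given here ends under that division, with adjusted p = 0.0832 for KLRG1, CD39, CD31 and CD127 and 0.178 for CD43. The log2 changes of these antibodies under it, in the same order, were 2.10, 1.07, -0.77, -2.86 and 0.46. In the main division they were 2.61, 1.02, -0.63, -2.26 and 0.99. Of the other antibodies named, 5 changed sign under it, and CD2 and CD117 were at 0.14 and -0.51. Without the library block 2 passed. KLRG1 was at 107 and 119 per 10000 in CD11b-high, 42 and 63.2 in CD11b-mid and 9.36 and 37.8 in CD11b-low cells, a log2 increase of 2.61 (SE 0.35, adjusted p = 0.000471). CD43, a sialylated protein of mature lymphocytes, was at 1158 and 1083 against 632 and 620.0, and Ly6C at 26.2 and 46.8 against 18.4 and 20.6. CD39 (an enzyme that degrades ATP) was at 63.9 and 55.5 against 30.2 and 35.5, and CD2 at 663 and 640.4 against 517 and 505. CD49b, at 1586 and 1483 against 1504 and 1290.1, had a log2 increase of 0.29 that turned to -0.036 with isotype scaling and -0.010 with raw CD11b UMIs.

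Lower antibodies included CD127, at 0.943 and 0.821 per 10000 in CD11b-high against 7.21 and 3.05 in CD11b-low cells, as its RNA was lower. CD117 (KIT) was at 26 and 31.2 against 67.5 and 78.5, and CD31 (an adhesion protein) at 75.8 and 81.1 against 141 and 131. IA_IE was at 185 and 191 against 498 and 491, a log2 decrease of 1.24 that was 0.52 without the cells high in MHC class II and turned to an increase of 0.39 with raw CD11b UMIs. CD63, CD371 and CD26 turned too with raw CD11b UMIs, and CD4 had 576 of the 644 UMIs of library 1's low group in 1 cell. CD22, at 2.64 and 1.91 against 6.6 and 7.37, was close to the isotypes (highest 3.24 in the low group).

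Surface Ly49D fell into separate levels with almost nothing between, and a comparison was added on that ground after seeing the data. Of 821 NK cells, 480 had at most 2 Ly49D UMIs, 1 had 3 to 9, and 340 had at least 10 (median 65, up to 315). The Ly49D-positive share was 39.5% in library 1 (exact binomial 95% interval 34.2 to 44.9) and 42.7% in library 2 (38.3 to 47.3). Of 1617 CD3-positive cells 26 had 10 or more, as did 0 of 178 and 0 of 207 B cells, which allows shares of up to 2.05% and 1.77%. Across the CD11b-high, mid and low groups the share was 37.8% and 36.8%, 47.3% and 47.2%, and 33.3% and 44.2%.

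The RNA that encodes this receptor followed the protein cell by cell. A Klra4 UMI was found in 127 of 131 and 197 of 209 Ly49D-positive cells, and in 0 of 201 and 1 of 279 Ly49D-negative cells. Klra4 was at 1635 and 1653 CPM in the positive cells and at 0 and 1.14 in the negative ones. As the split was made on the product of Klra4, this checks the antibody and is not a finding.

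Among the 6409 genes in the test, Ly49D-positive cells had 27 higher (0.421%) and 36 lower (0.562%), 0.983% in all, with a median of 0.00. Without the cells high in MHC class II, 19 were higher (0.33%) and 30 lower (0.522%), 0.852% of 5752 in all. This fit left 1 residual degree of freedom among samples, and DESeq2 called 3 genes, Klra4, Klrb1b and Ltb. Klrb1b, an inhibitory NKR-P1 receptor, was at 38.8 and 46.8 CPM in Ly49D-positive against 202 and 162 in Ly49D-negative cells, a log2 decrease of 2.03 (SE 0.22, adjusted p = 1.92e-16). Ltb was at 67.3 and 78.4 against 325 and 185. Klrc1 was at 114 and 86 against 280.0 and 257 CPM, with a UMI in 19.8% and 19.1% of positive and 42.8% and 46.2% of negative cells (adjusted p = 1.54e-14, DESeq2 adjusted p = 0.059).

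Other Ly49 genes varied in whether they passed. Klra8 was found in 59.5% and 67% of Ly49D-positive and 32.8% and 34.4% of Ly49D-negative cells, at 694 and 629 against 386 and 434 CPM (log2 increase of 0.66, SE 0.12, adjusted p = 4.24e-06, DESeq2 adjusted p = 0.935). The antibody to Ly49H, the Klra8 protein, did not pass in edgeR (log2 change of 0.26, SE 0.18, adjusted p = 0.562). Its log2 ratios of Ly49D-positive over Ly49D-negative cells within each library were of opposite sign, -0.21 and 0.31. Klra1 was at 171 and 186 against 73 and 87.9 CPM, and the pseudogene Klra13-ps at 129 and 112 against 45.2 and 52.5, and DESeq2 called neither. Klra7, Klra9 and Klra3 did not pass (adjusted p = 0.995, 0.186 and 0.0876). Gzma was at 9916 and 10761 against 9204 and 10806 CPM (adjusted p = 0.986) and Prf1 at 1180.0 and 928 against 913 and 915 (adjusted p = 0.699). Xcl1 was at 1123 and 1003 against 1781 and 1048, with an adjusted p of 0.0409 in edgeR and 1 in DESeq2.

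Ly49D-negative cells also held more RNA of several factors and receptors, though DESeq2 called none of them (adjusted p = 0.1485 for Ikzf2 and 0.3005 for Cd226 and S100a4). Ikzf2 (the factor Helios) was at 109.6 and 65 CPM in them against 15.5 and 10.6 in Ly49D-positive cells, and Rora (a nuclear receptor) at 66.1 and 50.2 against 12.9 and 9.05. Cd226 (the activating receptor DNAM-1) was at 109.6 and 83.3 against 18.1 and 21.1, S100a4 (a calcium-binding protein) at 127 and 183 against 38.8 and 60.3, and Gramd3 at 186 and 186 against 85.4 and 81.5. Il7r was at 64.3 and 38.8 against 23.3 and 0 CPM. Cxcr6 had 1 UMI in Ly49D-positive and 42 in Ly49D-negative cells, a 30.4-fold ratio per total RNA (5.16 to 1228). Several increases rested on single cells, since 83 of 106 UMIs of Car1, 30 of 50 of C1qtnf12, 46 of 103 of Blvrb, 26 of 48 of Mt1 and 51 of 111 of Cxcl9 were in 1 cell each.

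The CD226 protein showed the same direction as its RNA. It was at 33.5 and 42.8 per 10000 in Ly49D-positive and 122 and 121 in Ly49D-negative cells, a log2 decrease of 1.48 (SE 0.16, adjusted p = 5.43e-15). In all, 4 of 169 antibodies were higher (2.37%) and 11 lower (6.51%), 8.88% together, against 1 and 28 with antibody totals alone and 1 and 7 with isotype scaling. Without the cells high in MHC class II 0 were higher (0.0%) and 1 was lower (0.592%), CD226 (adjusted p = 0.0388), and it was also the 1 antibody called without the library block. CD90 (antibody CD90_A0075) was at 71.3 and 137 against 223 and 259, with an adjusted p of 1.01e-09 in edgeR that was 0.181 without those cells. The changes themselves moved less than the p-values. The log2 decrease of CD90 was 1.08 (SE 0.15) with those cells and 0.94 (SE 0.17) without them, and that of CD226 was 1.44 (SE 0.09) without them. The antibody fit also left 1 residual degree of freedom among samples, and why calls were lost was not tested.

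**Figure D5:**
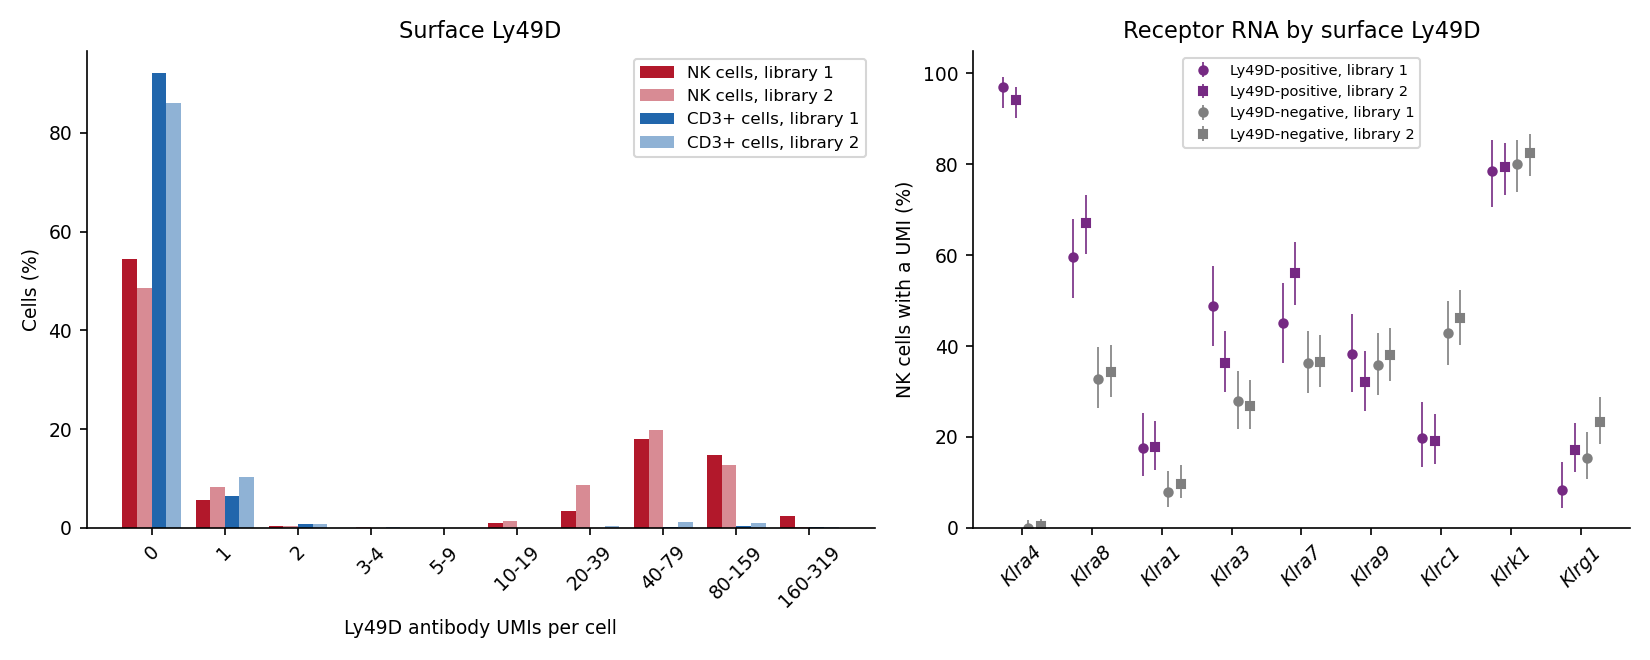
Left, percent of NK and CD3-positive (CD3+) cells by Ly49D antibody UMIs per cell. Right, percent of NK cells with a UMI of 9 receptor genes in Ly49D-positive and Ly49D-negative cells of each library with exact binomial 95% intervals, where Klra4 separates the groups and Klrc1 is in 19.8% and 19.1% against 42.8% and 46.2%.

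Some CD3-positive cells carried the receptor genes of the NK rule. At least 2 UMIs of Ncr1, Klrb1c and Klre1 were found in 75 and 84 of them. These cells had Gzma at 1717 and 3005 CPM and Xcl1 at 814 and 1326 CPM, between the CD3-positive class as a whole and NK cells for Gzma in both libraries, with Trac at 292 and 203 CPM. They were chosen on receptor RNA and are described without a test. Leaving them out of the CD3-positive class gave 1113 genes higher and 1122 lower in NK cells.

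Levels of Xcr1, which encodes the receptor of Xcl1, are description. The cDC1 class was chosen by at least 5 UMIs of the antibody to XCR1, and the other classes by at most 2. Xcr1 RNA was at 493 and 564 CPM in cDC1, 145 and 146 in the B class and 38.5 and 53.8 in cDC2. In NK cells it was at 63.4 and 88.2 CPM, and at 18 CPM without the cells high in MHC class II. Xcl1 was at 0.273 and 0.61 CPM in cDC1. Il12b was at 107 and 248 CPM in the B class, which also held Xcr1 RNA, and at 90.1 and 81.7 in cDC1. It was at 48.2 and 51.2 CPM in cDC2 and 48.9 and 57.1 in NK cells, so cDC1 did not have the highest level. Without the cells high in MHC class II, Il12b was at 4.11 CPM in NK cells. Il12rb2 was at 51 and 55.1 in NK cells against 8.4 and 7.79 in cDC1. Il15 and Il18 were at 16.7 and 16.5 and at 33.8 and 29.8 CPM in cDC1, and Il18r1, of the IL-18 receptor, at 165 and 152 in NK cells.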

How the data were processed

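The authors deposited raw UMI counts for each gene or antibody in each cell, not normalized, in a matrix whose file header names Cell Ranger 3.1.0. The submitters' processing notes list STAR, Seurat 3.1.4 and mm10. Of 55385 genes and 190 antibody features, 172 antibodies with 100 UMIs or more were used. Libraries were told apart and numbered by the barcode suffix. They held 13822 and 17968 barcodes and 99617992 and 129565040 RNA UMIs.

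Cells were classed by UMI thresholds, without clustering, and doublets were kept in the main values. Scrublet in scanpy 1.11.5 marked 546 (4.30%) and 1064 (6.24%) cells, which an alternative removed. B cells (178 and 207), cDC1 (3712 and 5437) and cDC2 (1838 and 1791) were classed likewise, with no UMI of the 6 rule genes. The cDC1 class had at least 5 UMIs of the antibody to XCR1 and at most 2 of that to CD172a, and the cDC2 class the reverse. B cells, cDC1 and cDC2 share the fit of NK against CD3-positive cells. UMIs were summed by class within each library. These sums were tested with edgeR 4.0.16 in R 4.3.3 (2-sided quasi-likelihood test, TMM, filterByExpr for RNA, the library as a block, Benjamini-Hochberg at 0.05). In simulated counts with a fixed spread, genes changed by 1 on the log2 scale were called in 29.6% (NK against CD3-positive), 11.5% (CD11b) and 40.9% (Ly49D). Unchanged genes were called in 0%, 0% and 0.067%. A gene that did not pass may therefore still differ. The block pairs classes of the same library, which were stained and sorted together. DESeq2 1.42.0, other scalings, filters and cell sets were alternatives. CPM are per total RNA UMIs of a class. Exact intervals of shares (binomial, 95%) and of ratios cover counting error only. Promoters came from RefSeq (GRCm38.p6).

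Members and gene lists were chosen with earlier results of these data known. Named genes were, per comparison, the 12 largest changes in each direction among genes past the threshold with at least 50 CPM in the higher class and the same direction in both libraries, or 10 antibodies in each direction above the highest isotype, together with list members. The division by Ly49D and the alternative with under 1% MHC class II were added after seeing the data.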

Additional observations from a re-analysis of the deposited data

How the results depend on the processing

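For NK against CD3-positive cells the number of genes called stayed within 1.5 times of 2113 in all 10 alternatives, from 1690 with a stricter cell filter to 2399 with only these classes in the fit. The antibody count fell from 68 to 44 with isotype UMIs as library size, and its split of 32 higher and 36 lower became 22 and 42 with only these classes in the fit, 23 and 45 without Scrublet doublets and 20 and 42 with at least 1000 UMIs per antibody. The CD11b comparison depended most on the processing. Its 332 genes became 88 with DESeq2, 116 with MHC class II under 1%, 154 with an NK threshold of 3 UMIs, 212 without Scrublet doublets, 47 with a stricter cell filter, 59 with raw CD11b UMIs and 639 with 2 equal groups in place of 3. Its 16 antibodies became 5 without Scrublet doublets, 25 with antibody totals alone, 8 with isotype scaling and 0 with raw CD11b UMIs (edgeR, 22 at an unadjusted p under 0.05). For Ly49D, 63 genes became 3 with DESeq2, and 15 antibodies became 1 with MHC class II under 1%, 29 with antibody totals, 8 with isotype scaling and 4 with at least 1000 UMIs per antibody. Without the library block, in place of the pairing of classes within a library, the calls were 1988 and 61 (NK against CD3-positive, genes and antibodies), 168 and 2 (CD11b) and 18 and 1 (Ly49D).

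Changes that reversed did so without passing the test. With raw CD11b UMIs the log2 changes were 1.61 for Apol7c, 0.93 for Basp1, 0.36 for Batf3, 0.53 for Cd24a, 0.42 for Ckb, 0.86 for Ifi205, 0.85 for Il12b, 1.44 for Il4i1, 0.13 for Jaml, and, for antibodies, 0.72 for CD26, 0.70 for CD371, -0.010 for CD49b, 0.49 for CD63 and 0.39 for IA_IE; CD49b was at -0.036 with isotype scaling. The causes were not tested. Leaving out a library leaves 1 sample per class, so only log2 ratios within the other library were had, with no test. Depth limits genes under about 50 CPM in groups of NK cells, which rest on few UMIs.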
